A study of Mus musculus with 6 samples.

Results

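The genes described here are 10 members of the BCL2 family, taken as the rows of the deposited table whose gene name is Mcl1, Bcl2l1, Bcl2, Bax, Bak1, Bcl2l11, Bmf, Bbc3, Bid or Bik. All 10 were found among the 25718 genes of the table, each as 1 row, and their values were read in every library. Hepatocytes, which make up most of the liver's mass, had been isolated from ethanol-fed WT and S100a16KO+/- mice, and their RNA was sequenced in 3 libraries of each genotype. The series set out to examine S100A16, a calcium-binding protein, in lipid accumulation. The labels do not state whether the 3 libraries of a genotype came from separate animals. The p values below therefore set the genotype difference against the spread between libraries, which may not be the spread between animals.

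Both genotypes were male mice of 8 to 10 weeks, given control Lieber-DeCarli diet for 5 days and then a 5% ethanol diet for 10 days. A single gavage of 5 g/kg ethanol followed, and cells were collected 9 h later by collagenase perfusion and Percoll separation. Every mouse therefore had ethanol, and an unexposed group was not analysed here. The S100a16KO+/- mice carried 1 deleted allele, made by removing floxed exons 2 to 3 with EIIa-Cre, a general deleter active in the early embryo, on a background more than 98% C57BL/6. Homozygous deletion was lethal, so the animals kept a functional copy, and the loss was not limited to hepatocytes. The labels call this group S100A16 knockdown.

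BCL2 family proteins decide whether the mitochondrial outer membrane is opened, the step that releases cytochrome c and starts the caspase cascade. The anti-apoptotic members (MCL1, BCL-XL from Bcl2l1, and BCL2) hold the effectors BAX and BAK in check. The BH3-only members (BIM from Bcl2l11, BMF, PUMA from Bbc3, BID and BIK) carry stress signals by binding the anti-apoptotic members or by activating the effectors directly. In hepatocytes, MCL1 and BCL-XL are known to be needed for survival, and BID links death receptors on the cell surface to mitochondria. These are mechanisms of proteins, whereas the values below are levels of RNA.

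The promoters of the 4 genes that differed between genotypes are printed to show what lies at their starts, and 1 promoter of Bbc3, which did not pass the test, is printed beside them because it holds the same motif as that of Bcl2l11. Each runs from 250 bases before to 50 bases after the start given by RefSeq on GRCm38.p6, 5′ to 3′ on the strand of the gene, with motif matches in capitals. Bcl2l11 (chr2:128125788-128126087, plus strand), Bax (chr7:45466849-45467148, minus strand), Bmf (chr2:118549637-118549936, minus strand), Mcl1 (chr3:95658471-95658770, plus strand) and Bbc3 (chr7:16310011-16310310, plus strand) read as follows.
Bcl2l11 promoter 1: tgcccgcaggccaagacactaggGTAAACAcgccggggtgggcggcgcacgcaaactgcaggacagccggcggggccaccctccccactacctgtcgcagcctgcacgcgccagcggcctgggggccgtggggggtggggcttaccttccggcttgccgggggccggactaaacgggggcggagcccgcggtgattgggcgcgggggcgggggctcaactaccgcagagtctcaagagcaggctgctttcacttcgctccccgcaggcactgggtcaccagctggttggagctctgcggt
Bax promoter: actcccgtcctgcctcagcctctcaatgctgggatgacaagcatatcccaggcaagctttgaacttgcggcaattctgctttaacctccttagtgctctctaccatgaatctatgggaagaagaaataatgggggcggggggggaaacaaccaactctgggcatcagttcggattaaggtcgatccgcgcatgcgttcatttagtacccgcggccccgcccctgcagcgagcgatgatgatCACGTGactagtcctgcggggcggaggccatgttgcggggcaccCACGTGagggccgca
Bmf promoter 1: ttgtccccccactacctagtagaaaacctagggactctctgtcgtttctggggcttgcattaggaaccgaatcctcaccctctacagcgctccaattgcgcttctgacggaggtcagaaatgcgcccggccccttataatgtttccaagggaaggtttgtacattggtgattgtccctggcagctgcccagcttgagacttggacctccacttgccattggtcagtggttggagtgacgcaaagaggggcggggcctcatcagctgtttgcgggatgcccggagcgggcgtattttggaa
Mcl1 promoter: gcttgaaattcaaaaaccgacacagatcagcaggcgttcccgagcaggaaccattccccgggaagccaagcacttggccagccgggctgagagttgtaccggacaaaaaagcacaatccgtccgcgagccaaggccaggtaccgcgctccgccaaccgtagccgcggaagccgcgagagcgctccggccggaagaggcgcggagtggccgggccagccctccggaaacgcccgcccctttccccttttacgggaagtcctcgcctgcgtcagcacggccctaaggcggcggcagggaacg
Bbc3 promoter 2: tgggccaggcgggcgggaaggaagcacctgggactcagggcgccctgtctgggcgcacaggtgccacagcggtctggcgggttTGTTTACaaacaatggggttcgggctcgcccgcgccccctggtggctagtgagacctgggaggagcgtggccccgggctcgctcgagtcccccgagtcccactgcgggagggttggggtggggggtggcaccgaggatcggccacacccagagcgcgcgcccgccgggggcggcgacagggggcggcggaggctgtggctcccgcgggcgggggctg

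RefSeq promoters were matched for 9 of the 10 members, 16 promoters in all. Bik had no match. They were searched on both strands for the FOXO core GTAAACA, the E-box CACGTG, the amino acid response element TGATGNAA bound by CHOP and ATF4, and the cyclic AMP response element TGACGTCA. Promoter 1 of Bcl2l11 held the FOXO core at bases 24 to 30, and promoter 2 of Bbc3 held its reverse complement at bases 84 to 90. The FOXO core occurred in 3.65% of 32851 mouse promoters of this length. The Bax promoter held the E-box at bases 242 to 247 and again at bases 286 to 291, and promoter 3 of Bbc3 held it at bases 187 to 192. That motif occurred in 7.15% of all promoters. The amino acid response element (3.97% of all promoters) and the cyclic AMP response element (1.79%) had no match in the members' windows, and the windows of Mcl1 and Bmf matched none of the searched letters. A match is a description of letters and does not show that a factor was bound.

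Library totals ran from 67658095 to 71807834 estimated counts, with 1 sequenced fragment worth about 4 counts, and the limit that a count of 0 allows covers counting error only. S100a16 (chr3:90537254-90543151) had FPKM values of 7.67, 8.55 and 9.07 in WT and 3.52, 3.17 and 2.92 in S100a16KO+/- libraries. On the log2 scale it fell by 1.40, with a standard error of 0.11 and an adjusted p of 4.14e-07 (edgeR). WT replicate 1 and S100a16KO+/- replicate 2 stood apart from the other libraries on the second principal component (12.8% of the variance), at scores of 10.6 and 16.9 against -8.83 to -4.32. Mitochondrial transcripts took 21.1% and 20.1% of the counts in those 2 libraries and 17.0% to 18.6% in the other 4. No library was a copy of another. Defining hepatocyte markers were abundant in both genotypes, with 8 of 8 tested, of which 2 fell and 6 did not pass the test, and a summed level of 48826 to 49925 FPKM in WT and 47811 to 48747 FPKM in S100a16KO+/- libraries.

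Marker levels of other liver cells differed between genotypes and stand here as measured facts beside the results on the family. Of 7 markers of sinusoidal endothelial cells 6 rose and 1 fell, and their summed level was 39.2 to 42.9 FPKM in WT and 58.5 to 59.7 FPKM in S100a16KO+/- libraries. Of 7 stellate cell markers 4 rose, at 5.47 to 5.60 FPKM in WT and 10.1 to 10.3 FPKM in S100a16KO+/- libraries. Of 8 markers of Kupffer cells and macrophages 2 rose (46.1 to 57.01 against 53.5 to 60.9 FPKM). All 5 erythroid markers fell, from 261 to 288 FPKM down to 25.2 to 26.2 FPKM. Of the tested markers of cholangiocytes (4) and lymphocytes (7) 1 each fell, and the 4 tested markers of neutrophils did not pass the test. In bulk RNA, fewer cells of a type cannot be told apart from less RNA per cell.

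Of the 10 members, 3 rose in S100a16KO+/- hepatocytes, 1 fell and 6 did not pass the test. The genes that rose were the BH3-only genes Bcl2l11 and Bmf and the effector Bax, and the gene that fell was the anti-apoptotic Mcl1. Their folds were modest, at most 1.52, so that no member reached the study's 2-fold limit, which together with an unadjusted p under 0.05 was met by 4.52% of all tested genes. All 10 passed the filter on low counts and were tested together with all 15957 genes by edgeR's quasi-likelihood test, two-sided, with Benjamini-Hochberg adjustment. Over all tested genes 22.8% were called at an adjusted p under 0.05, 11.6% higher and 11.2% lower, so that 4 of 10 is to be read against a background of about that share. The median log2 fold change of the members was -0.01, against 0.01 over all tested genes. The 3 values of one genotype lay outside those of the other, in CPM (the estimated count relative to the library total after TMM scaling), for 5 of the 10 members, a separation found for 37.9% of all tested genes. The called share depends on the filter on low counts. With a minimum mean of 1 CPM, 3732 of 11938 tested genes and 4 of 9 tested members were called.

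**Figure D1:**
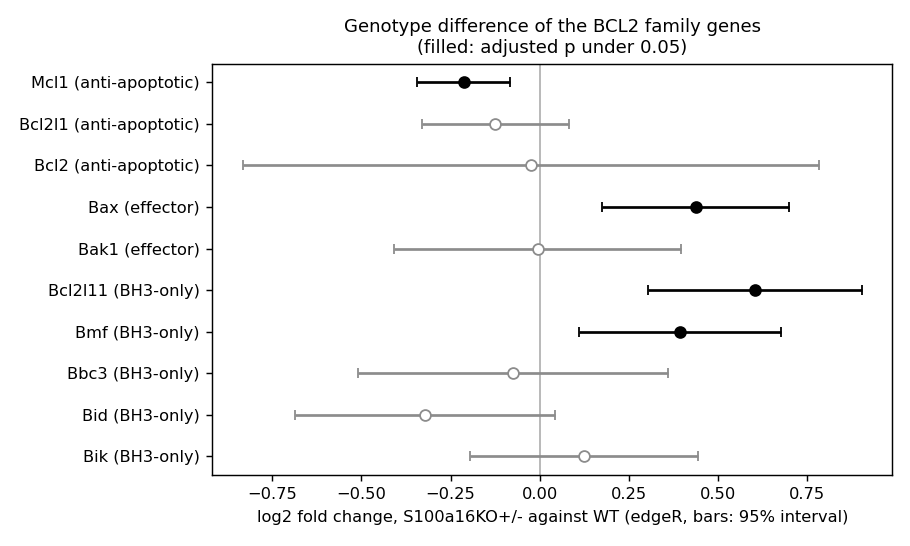
Log2 fold change (x axis) of each BCL2 family gene (y axis, with its role) in S100a16KO+/- against WT hepatocytes, from edgeR with 3 libraries per genotype. Points are estimates, bars are 95% intervals, and the filled points, for Mcl1 on the left of 0 and Bax, Bcl2l11 and Bmf on the right, had an adjusted p under 0.05.

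Bcl2l11 encodes BIM, a BH3-only protein that binds all the anti-apoptotic members and can activate BAX and BAK. The gene (ENSMUSG00000027381, chr2:128126038-128162547, plus strand, mm10) had CPM values of 6.17, 9.14 and 7.00 in WT replicates 1 to 3 and of 10.98, 10.5 and 12.4 in S100a16KO+/- replicates 1 to 3. Every S100a16KO+/- library lay above every WT library, also in FPKM. In estimated counts these were 421, 643 and 479 against 761, 673 and 895. The mean went from 7.43 ± 1.53 to 11.3 ± 1.014 CPM (SD, n = 3 each), 1.52-fold higher with a 95% interval of 1.23 to 1.87. This is 0.60 on the log2 scale, with a standard error of 0.14 and an adjusted p of 0.00608, the largest value among the members. The call held with each library left out in turn, at log2 fold changes of 0.48 to 0.78 and adjusted p of 0.00154 to 0.0399. It was lost in limma on log2(FPKM + 0.1), at an adjusted p of 0.0502, and in limma on log2(FPKM + 1) without a filter, at 0.181.

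The 4 called members differed in how much they moved with single libraries. In each of them the lowest S100a16KO+/- value was that of replicate 2, and in Bcl2l11, Bax and Mcl1 the lowest WT value was that of replicate 1, the other library that stood apart. Without these 2 libraries, a setting chosen after the data were seen, 3 members kept an adjusted p under 0.05, Bcl2l11 at 0.0153, Bax at 0.0113 and Mcl1 at 0.00970. Bmf had a log2 fold change of 0.43 there and an adjusted p of 0.0750.

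Bmf encodes a BH3-only protein known to be released from the cytoskeleton under stress. The gene (ENSMUSG00000040093, chr2:118528757-118549687, minus strand) had CPM values of 4.69, 4.60 and 5.17 in WT and of 6.48, 5.82 and 6.69 in S100a16KO+/- libraries. The genotypes did not overlap, in CPM or in FPKM. The mean went from 4.82 ± 0.308 to 6.33 ± 0.455 CPM (SD, n = 3 each), 1.31-fold higher with a 95% interval of 1.08 to 1.599. This is 0.39 on the log2 scale with a standard error of 0.13, and the adjusted p, 0.0458, lay just under the threshold. It rose above the threshold when any library other than S100a16KO+/- replicate 2 was left out, to between 0.0666 and 0.141, at log2 fold changes of 0.35 to 0.45, and also without the filter on low counts (0.0609).

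The other BH3-only members did not pass the test. Bid, which is cut by caspase 8 and so relays death receptor signals (ENSMUSG00000004446, chr6:120891930-120916853, minus strand), had 10.001, 7.17 and 11.2 CPM in WT and 8.89, 7.61 and 6.23 CPM in S100a16KO+/- libraries. WT replicate 2 lay within the S100a16KO+/- values. Its log2 fold change was -0.32 (95% interval -0.69 to 0.04, adjusted p = 0.205), and without WT replicate 2 it was -0.49 with an adjusted p of 0.0488. The last exons of Bid and of Bcl2l13 overlap on opposite strands in the annotation, over 17.7% of the exonic bases of Bid, and whether reads were counted by strand was not stated.

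Bbc3 encodes PUMA, a BH3-only protein under the control of p53 and FOXO factors. The gene (ENSMUSG00000002083, chr7:16308393-16318205, plus strand) had 2.80, 2.59 and 3.77 CPM in WT and 3.36, 2.96 and 2.37 CPM in S100a16KO+/- libraries. The genotypes overlapped, and the log2 fold change was -0.07 with a 95% interval of -0.51 to 0.36 (adjusted p = 0.846). Its direction turned without WT replicate 3 (0.11) and without S100a16KO+/- replicate 3 (0.05). Bik, a BH3-only protein of the endoplasmic reticulum (ENSMUSG00000016758, chr15:83526862-83544634, plus strand), had 3.67, 4.01 and 4.63 CPM in WT and 4.56, 4.48 and 4.39 CPM in S100a16KO+/- libraries. Its log2 fold change was 0.12 (95% interval -0.20 to 0.45, adjusted p = 0.625). The S100a16KO+/- values of Bik were close together, with a coefficient of variation of 1.94%, against a median of 9.91% in that genotype for the 6518 tested genes between 2 and 20 CPM. Bcl2l1 was nearly as close in that genotype, at 2.15%, and a coefficient of variation from 3 libraries is imprecise.

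**Figure D2:**
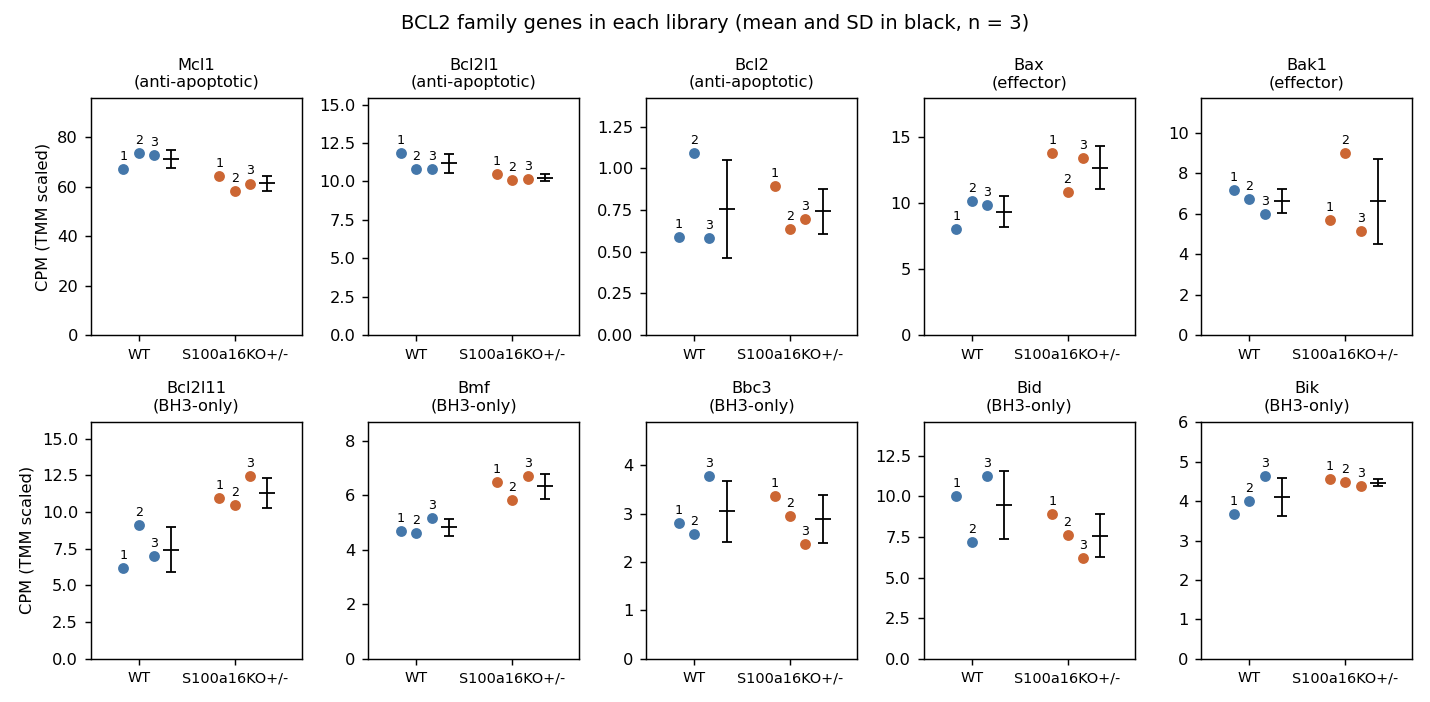
Level of each BCL2 family gene in CPM scaled by TMM (y axis, from 0, own scale per panel) in each WT (blue) and S100a16KO+/- (orange) library, numbered by replicate, with the mean and SD over 3 libraries in black. In Bcl2l11, Bax and Bmf every S100a16KO+/- point is above every WT point, in Mcl1 and Bcl2l1 every one is below, and replicate 2 of S100a16KO+/- is the high point of Bak1 at 9.01 CPM.

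Bax and Bak1 encode the effectors that form the pore in the outer membrane. Bax (ENSMUSG00000003873, chr7:45461697-45466898, minus strand) had 8.05, 10.2 and 9.88 CPM in WT and 13.8, 10.8 and 13.4 CPM in S100a16KO+/- libraries. The genotypes did not overlap in CPM, but in FPKM S100a16KO+/- replicate 2 (5.81) lay below WT replicate 2 (5.93). The mean went from 9.36 ± 1.14 to 12.7 ± 1.62 CPM (SD, n = 3 each), 1.36-fold higher with a 95% interval of 1.13 to 1.63. This is 0.44 on the log2 scale, with a standard error of 0.12 and an adjusted p of 0.0182. The call was lost without WT replicate 1 (adjusted p = 0.0827), without S100a16KO+/- replicate 1 (0.0891) and without S100a16KO+/- replicate 3 (0.0775), at log2 fold changes of 0.34 to 0.40. In the annotation, 12.2% of the exonic bases of Bax are shared with a protein-coding gene on the same strand, Gm45808. It is not among the genes with values in this series.

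Bak1 (ENSMUSG00000057789, chr17:27019810-27029009, minus strand) had 7.16, 6.73 and 5.99 CPM in WT and 5.69, 9.01 and 5.14 CPM in S100a16KO+/- libraries. Apart from replicate 2, the S100a16KO+/- libraries lay below all WT libraries. Bak1 had a log2 fold change of -0.01 (95% interval -0.41 to 0.40, adjusted p = 0.988). It turned positive without WT replicate 1 (0.05), WT replicate 2 (0.01), S100a16KO+/- replicate 1 (0.09) or S100a16KO+/- replicate 3 (0.15), and was -0.29 without S100a16KO+/- replicate 2. The spread within S100a16KO+/- hepatocytes was 31.7% of the mean, against 8.93% in WT. Ggnbp1, on the opposite strand, shares 18.2% of the exonic bases of Bak1, and its CPM values ran the other way in the S100a16KO+/- libraries, at 7.39, 4.81 and 9.07. The table holds a second gene of that name on the same strand, which shares 7.35% of the exonic bases of Bak1 and had 759 to 1122 estimated counts. The effectors thus differed in their genotype values, but the difference between them was not tested.

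Mcl1 encodes the short-lived anti-apoptotic protein on which hepatocytes depend, and it had the highest level of the 10 members. The gene (ENSMUSG00000038612, chr3:95658788-95663176, plus strand) had 67.04, 73.8 and 72.7 CPM in WT and 64.5, 58.4 and 61.3 CPM in S100a16KO+/- libraries. The genotypes were apart in CPM by a small gap and overlapped in FPKM, where S100a16KO+/- replicate 1 (17.2) lay above WT replicate 1 (16.6). The mean went from 71.2 ± 3.62 to 61.4 ± 3.01 CPM (SD, n = 3 each), 0.863-fold with a 95% interval of 0.788 to 0.945. On the log2 scale it fell by 0.21, with a standard error of 0.06 and an adjusted p of 0.0208. The call was lost without WT replicate 2 (adjusted p = 0.0915), WT replicate 3 (0.0815), S100a16KO+/- replicate 2 (0.0598) and S100a16KO+/- replicate 3 (0.0636), at log2 fold changes of -0.21 to -0.18.

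Mcl1 lies on the same chromosome as the targeted gene, its start 5.12 Mb from that of S100a16. Of the 63 tested genes between them 12 were called, and within 10 Mb of S100a16 on either side 65 of 266 tested genes were called (24.4%), 35 higher and 30 lower. The share over all tested genes was 22.8%.

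Bcl2l1 encodes BCL-XL, the other anti-apoptotic protein needed by hepatocytes. The gene (ENSMUSG00000007659, chr2:152780668-152831728, minus strand) had 11.9, 10.8 and 10.8 CPM in WT and 10.5, 10.1 and 10.1 CPM in S100a16KO+/- libraries. Every S100a16KO+/- value was below every WT value, in CPM and in FPKM, yet the difference did not pass the test (log2 fold change -0.12, 95% interval -0.33 to 0.08, adjusted p = 0.412). Bcl2 itself, the founding member (ENSMUSG00000057329, chr1:106538178-106714274, minus strand), was close to the limit of measurement. It had 40, 77 and 40 estimated counts in WT and 62, 41 and 50 in S100a16KO+/- libraries, where a count of 0 would allow up to 12. The log2 fold change of -0.02 had a 95% interval of -0.83 to 0.78 (adjusted p = 0.975), so that even a change of the size seen for Bcl2l11 could not be told from none at this depth.

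On the FPKM scale, which corrects for transcript length, the levels of the members could be ordered. Over the 6 libraries Mcl1 had a mean of 17.4 FPKM and Bax followed with 6.27 FPKM, and each was apart from the next gene in every library of both genotypes. Bak1 (2.44 FPKM), Bik (2.40), Bid (2.14) and Bcl2l1 (2.08) followed, and neighbours in this order overlapped in their ranges in at least 1 genotype. Bbc3 (1.25 FPKM), Bcl2l11 (1.04) and Bmf (0.947) came next. Bbc3 was above Bcl2l11 in every WT library, whereas their ranges overlapped in S100a16KO+/- hepatocytes. Bcl2 was last at 0.0721 FPKM, below every value of every other member.

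The summed level of the 10 genes was 36.2 ± 3.17 FPKM in WT and 35.9 ± 2.80 FPKM in S100a16KO+/- hepatocytes (SD, n = 3 each). Mcl1 took 51.1%, 52.6% and 50.5% of that sum in WT and 45.1%, 44.2% and 45.7% in S100a16KO+/- libraries. Bax took 13.3%, 15.7% and 14.8% in WT and 20.9%, 17.7% and 21.6% in S100a16KO+/- libraries. The share of Bcl2l11 was 2.27% ± 0.427 and 3.52% ± 0.361, and that of Bmf 2.25% ± 0.110 and 3.00% ± 0.198 (SD, n = 3 each). These shares rest on the same values as the tests above and are given as a description.

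Summed by role, the anti-apoptotic genes had 18.9, 22.2 and 21.5 FPKM in WT and 19.4, 16.4 and 18.8 FPKM in S100a16KO+/- libraries, and the genotypes overlapped. As a share of the 10 genes, which also depends on Bax, this was 57.6% ± 1.23 and 50.8% ± 0.730 (SD, n = 3 each). Bax and Bak1 together had 21.4% ± 0.943 and 27.0% ± 0.425, with Bak1 alone at 6.81% and 6.91%. The BH3-only genes were at 21.0% ± 2.06 and 22.2% ± 0.709, with overlapping libraries. The ratio of anti-apoptotic to effector and BH3-only FPKM was 1.38, 1.42 and 1.29 in WT and 1.03, 1.002 and 1.06 in S100a16KO+/- libraries. No library of one genotype reached the range of the other, but this ratio rests on the same values as the tests above. Mcl1 over Bax was 3.86, 3.36 and 3.40 in WT and 2.16, 2.49 and 2.11 in S100a16KO+/- libraries. Mcl1 over Bcl2l11 was 25.7, 19.1 and 24.5 in WT and 13.8, 13.1 and 11.6 in S100a16KO+/- libraries. Both ratios put the member called lower over a member called higher. That choice favours a separation of the genotypes, so they are given as a description only. Bax over Bak1 overlapped, since S100a16KO+/- replicate 2 had a ratio of 1.83, between the WT values of 1.71 and 2.30. A ratio of RNA levels is not a ratio of proteins, which were not analysed here.

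**Figure D3:**
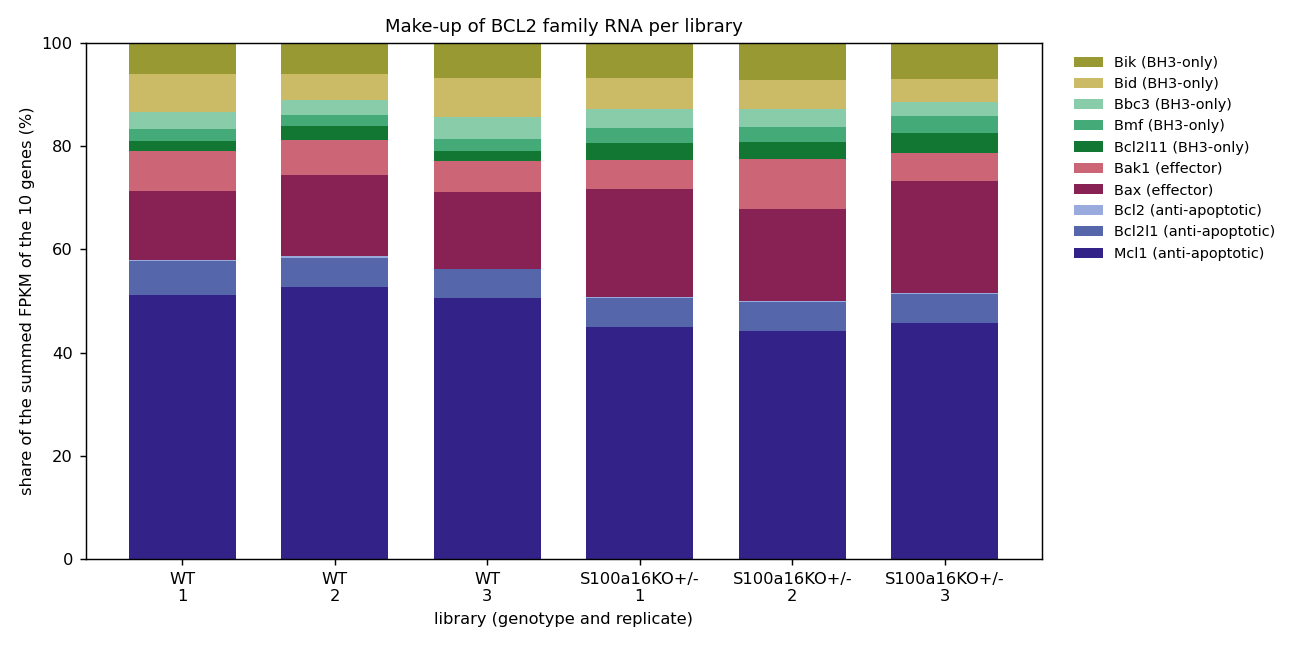
Share of the summed FPKM of the 10 BCL2 family genes (y axis, percent) taken by each gene in each library (x axis), stacked by role with the anti-apoptotic genes at the bottom. The block of Mcl1 covers 50.5% to 52.6% in WT and 44.2% to 45.7% in S100a16KO+/- libraries, and the block of Bax is larger in all 3 S100a16KO+/- libraries.

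Since endothelial and stellate cell markers were higher in the same libraries, their size is given beside the rises of Bcl2l11, Bmf and Bax. The median log2 fold change of the 7 endothelial markers was 0.47, with 6 called higher and 1 lower. That of the 7 stellate markers was 0.63, with 4 called higher and 0 lower. The summed levels of both lists were far below that of the hepatocyte markers in every library. Sums over different marker genes do not measure the share of each cell type or the source of a member's RNA. The part of endothelial and stellate cells in the values of the members was not tested.

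Around the members, 9 lists of genes that act with the family held 113 tested genes, of which 35 were called (31.0%), against 22.8% of all tested genes. The counts of each list below are to be read against that share, which depends on the filter on low counts. With a minimum mean of 1 CPM, 3732 of 11938 tested genes were called, among them 36 list genes. How many list genes were tested in that setting was not counted, so their share there cannot be set beside that of all genes. The higher share of the lists was not tested and is not read as a result about these genes. Among other family genes, 11 were tested, 1 rose and 2 fell. Bcl2l13, a mitophagy receptor with BCL2 homology, fell with a log2 fold change of -0.25 (adjusted p = 0.0441), and it overlaps Bid. The call was lost without WT replicate 2 or 3 or S100a16KO+/- replicate 1 or 3, at adjusted p of 0.105 to 0.177. The remaining calls were low in counts, and these genes are named after their values were seen. Hrk, a BH3-only gene best known from neurons, had 69, 130 and 80 estimated counts in WT and 26, 16 and 49 in S100a16KO+/- libraries (log2 fold change -1.62, adjusted p = 0.0103). Bcl2a1a, an anti-apoptotic gene of blood cells, had 0 counts in each WT library and 14, 10 and 18 in S100a16KO+/- libraries (adjusted p = 0.00740). These values lie around the 12 counts that a count of 0 allows, so no fold is given. Bcl2a1a also has near-identical paralogs that could share its reads.

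Downstream of the outer membrane, 4 of 13 tested genes of the apoptosome and caspases fell and 1 rose. Cycs, which encodes the cytochrome c that the pore releases, fell by 0.37 on the log2 scale, from 57.4 ± 3.67 to 44.5 ± 1.26 CPM (SD, n = 3 each, adjusted p = 0.000533). Casp6, an executioner caspase, fell by 0.48 (adjusted p = 0.00135), and Dffa, the inhibitor of the caspase-activated nuclease, by 0.52 (0.00600). Aifm1 also fell, by 0.25 (adjusted p = 0.00540). Endog, a mitochondrial nuclease, rose with a log2 fold change of 0.43 (adjusted p = 0.000664). Apaf1 (0.43, adjusted p = 0.107) and Casp9 (-0.19, 0.309), which form the apoptosome with cytochrome c, did not pass the test. Of 9 caspase inhibitors and their antagonists 2 fell and the other 7 did not pass. These were Xiap, a direct inhibitor of caspases (log2 fold change -0.21, adjusted p = 0.0308), and Birc6 (-0.17, 0.0447). Birc6 lost its call with any library left out (adjusted p of 0.0706 to 0.164), and Xiap without WT replicate 2 or 3 or S100a16KO+/- replicate 2 or 3 (0.0804 to 0.117).

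Of 16 genes of death receptors, their ligands and their adaptors inside the cell, 2 rose and the other 14 did not pass the test. Cflar, which encodes the caspase 8 inhibitor FLIP, had 47.6 ± 2.89 CPM in WT and 81.9 ± 4.47 CPM in S100a16KO+/- cells (SD, n = 3 each) and rose by 0.78 on the log2 scale (adjusted p = 6.21e-07). Tnfrsf1b, a TNF receptor known from blood and endothelial cells, rose by 0.66 on the log2 scale (adjusted p = 2.04e-05). Fas did not pass, with a log2 value of -0.26 (adjusted p = 0.0794), nor did Casp8, the protease between these receptors and BID (-0.03, 0.905). Among 12 genes of the outer membrane and the VDAC channels 3 fell. On the log2 scale Vdac1, the main channel and a partner of BCL-XL, fell by 0.26 (adjusted p = 0.00250). Opa1, which shapes the cristae that hold cytochrome c, fell by 0.27 (0.00252). Mtch2, a receptor for BID at the membrane, fell by 0.22 (0.0130), and its call was lost without WT replicate 3 (0.0701) or S100a16KO+/- replicate 3 (0.0626). Vdac2, which holds BAK, had 0.04 (adjusted p = 0.727).

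Among 12 genes of the TMBIM family, of calcium release from the endoplasmic reticulum and of BAG cochaperones, 3 rose and 1 fell. Bag3, a stress-induced cochaperone, rose by 0.74 on the log2 scale (adjusted p = 7.72e-05), and Itpr3, a calcium channel bound by BCL2 proteins, by 0.68 (0.0215). Grina, a TMBIM member, rose by 0.30 (adjusted p = 0.0225) and Ghitm, its relative of the inner mitochondrial membrane, fell by 0.28 (0.00305). The call of Itpr3 was lost without WT replicate 1 (0.0718), WT replicate 3 (0.0724) or S100a16KO+/- replicate 2 (0.106), and that of Grina without WT replicate 2 (0.0947), WT replicate 3 (0.0788) or S100a16KO+/- replicate 2 (0.0530). Tmbim6, the most abundant of those named here with means of 1184 ± 16.1 and 1283 ± 46.3 CPM in WT and S100a16KO+/- cells (SD, n = 3 each), had a log2 value of 0.12 and an adjusted p of 0.0825.

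Of 11 tested transcription factors known to act on members of the family, 3 rose and 2 fell. Ddit3, which encodes CHOP, an activator of Bcl2l11 under endoplasmic reticulum stress, had 10.6 ± 0.327 CPM in WT and 16.03 ± 0.886 CPM in S100a16KO+/- cells (SD, n = 3 each) and rose by 0.60 on the log2 scale (adjusted p = 0.000196). Atf4, which lies upstream of CHOP, rose by 0.35 on the log2 scale (adjusted p = 0.000366). Atf3, another gene of the same stress branch, fell by 1.60 (adjusted p = 1.02e-06). Stat3 rose by 0.22 (adjusted p = 0.0392). Hif1a fell by 0.29 (adjusted p = 0.0118), a call lost without WT replicate 3 (0.0799) or S100a16KO+/- replicate 3 (0.0603). The FOXO genes known to drive Bcl2l11 and Bbc3 did not pass the test, with log2 fold changes of 0.04 for Foxo3 (adjusted p = 0.731) and -0.17 for Foxo1 (0.202). Trp53 had 0.12 (adjusted p = 0.642).

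Of 16 tested targets of p53, 3 rose and 3 fell. Gadd45a fell by 2.87 on the log2 scale, from 57.1 ± 1.06 to 7.79 ± 1.19 CPM (SD, n = 3 each, adjusted p = 4.30e-11). Btg2 rose by 0.98 (adjusted p = 1.70e-08), Trp53inp1 by 0.79 (3.93e-07) and Sesn1 by 0.52 (0.00306). Perp fell by 0.40 (0.000104) and Mdm2 by 0.26 (0.0378), whereas Cdkn1a, the classical target, had -0.27 with an adjusted p of 0.609.

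Of 15 tested genes of MCL1 and BIM turnover and of the kinases that act on the family, 2 rose and 3 fell. Usp9x, the deubiquitinase that stabilises MCL1, rose by 0.34 on the log2 scale (adjusted p = 0.000638), and Huwe1, the ligase that marks MCL1 for degradation, had a log2 value of 0.02 (0.871). The PIM kinases, which phosphorylate BAD, went opposite ways. Pim3 rose by 0.86 on the log2 scale (adjusted p = 9.82e-07) and Pim1 fell by 0.75 (0.000207). Rps6ka1, which encodes the kinase RSK1, known to phosphorylate BIM and BAD, fell by 0.69 (adjusted p = 0.00128). Bad itself had 0.08 (adjusted p = 0.750). Gsk3b fell by 0.28 (adjusted p = 0.0340).

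**Figure D4:**
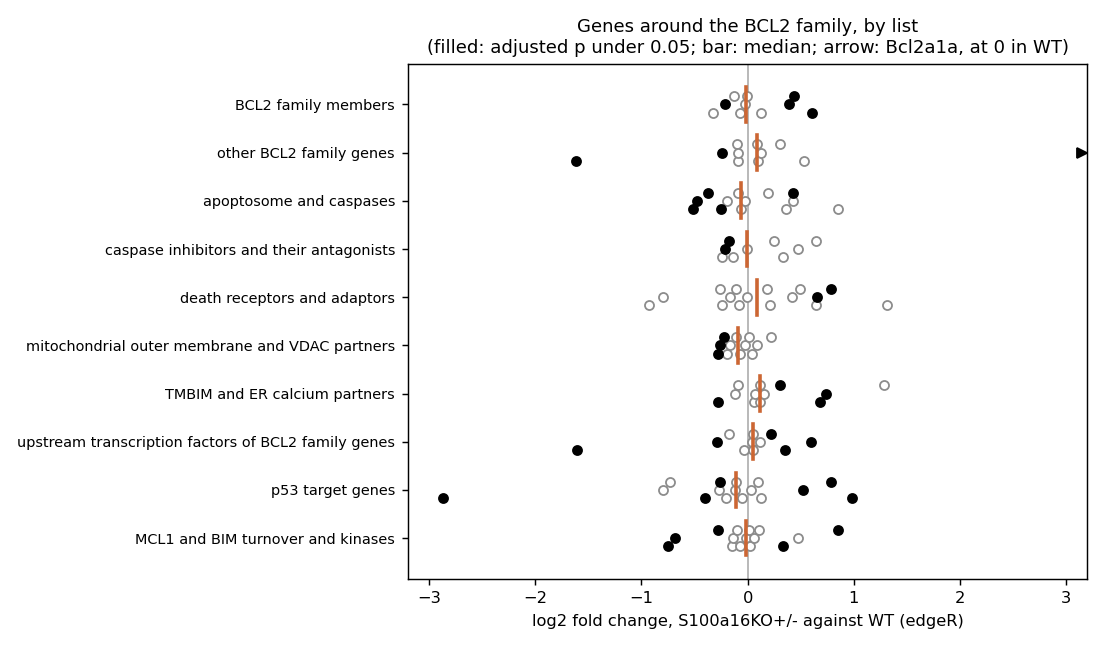
Log2 fold change in S100a16KO+/- against WT hepatocytes (x axis, edgeR) of each tested gene in the BCL2 family and in 9 lists of genes that act with it (y axis), with filled points for an adjusted p under 0.05 and an orange bar at each median. The medians lie between -0.11 and 0.12, filled points stand on both sides of 0 in 7 of the 10 rows, and the arrow is Bcl2a1a, which had 0 counts in WT and has no fold.

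The genes whose pattern over the 6 libraries was most like that of the called members with the largest folds were found by Pearson's r of log2(CPM + 1) among 11937 other genes averaging 1 CPM or more. For Bcl2l11 they were Tspan9 (r = 0.996), Mapk8ip3 (0.993) and Nudt13 (0.993), and for Bax Slc15a4 (0.994), Snhg11 (0.991) and Polr1c (0.991). These values describe 6 libraries that share a genotype contrast and the 2 libraries that stood apart.

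**Figure D5:**
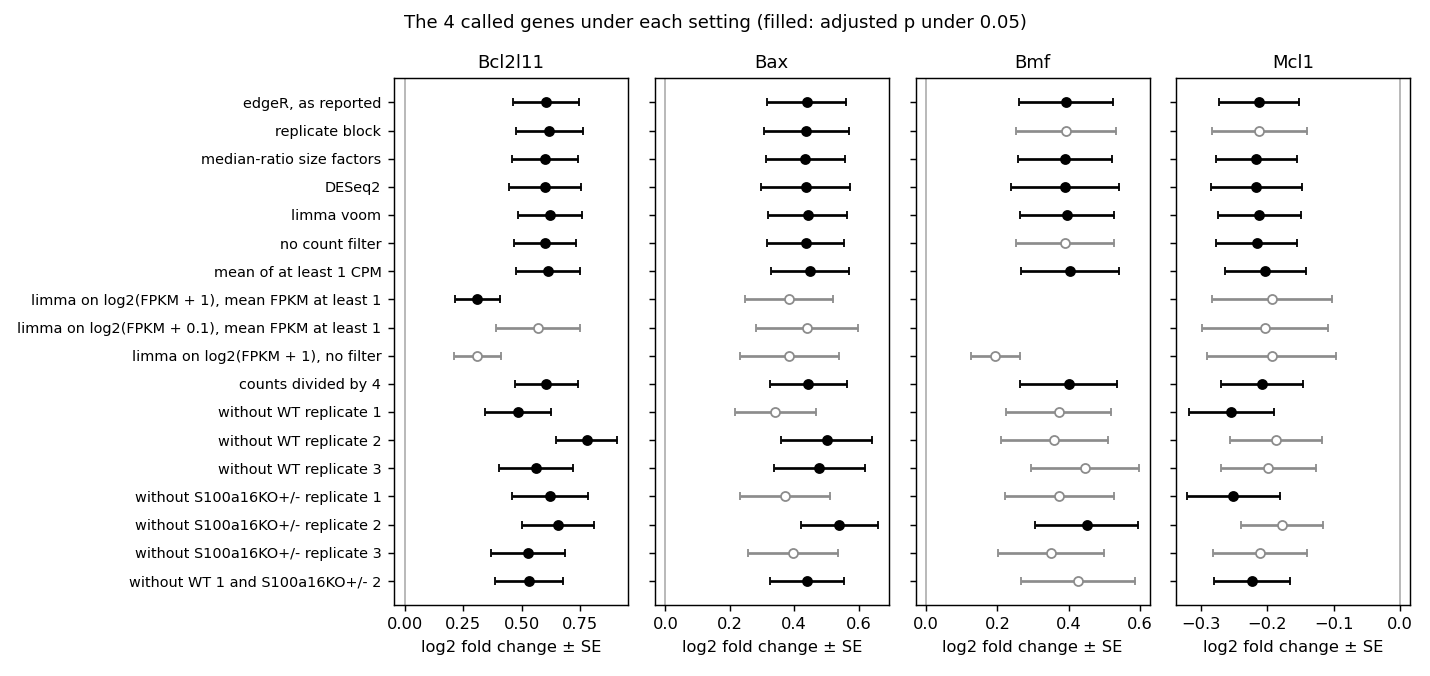
Log2 fold change with its standard error (x axis) of Bcl2l11, Bax, Bmf and Mcl1 under each setting (y axis), with filled points for an adjusted p under 0.05. Bcl2l11 stays filled with every library left out in turn and Bmf only without S100a16KO+/- replicate 2, and no setting moves an estimate across 0.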

How the data were processed

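Hepatocytes of ethanol-fed WT and S100a16KO+/- mice gave 3 RNA sequencing libraries each. They were stranded libraries of polyadenylated RNA whose adapters carried molecular identifiers. The submitters' processing notes name cutadapt 1.9, HISAT2 2.0.4, UMI-tools, StringTie 1.3.4d, DESeq2, edgeR and the build mm10, with no roles given. The annotation and the use of strand in counting are not given in the sources used here. The authors deposited estimated counts per gene and library, not scaled for library size, and FPKM values, for which the authors divided by transcript length and library size. Both kinds of values cover 25718 genes, and the columns of the table were matched to samples by their titles.

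Estimated counts, which are whole numbers, were tested with edgeR 4.0.16 (R 4.3.3): filterByExpr, TMM scaling, a robust quasi-likelihood fit of genotype, two-sided, with Benjamini-Hochberg adjustment over 15957 genes and a threshold of 0.05. The scripts were tested on simulated data. Other settings were a block for the replicate number, median-ratio size factors, DESeq2 1.42.0, limma 3.58.1 (voom, and trend on log2 FPKM with a pseudocount of 1 or 0.1), other filters, counts divided by 4, and each library left out. The setting without 2 libraries was added after the data were seen. In WT replicate 1, a count of 4 was held by 936 genes, against 561 at 3 and 259 at 5. A count of 8 was held by 380 genes, against 364 at 7 and 201 at 9, and 776 genes had a count of 1. From the excess at 4, 1 fragment was taken to be worth about 4 counts, so that a count of 0 allows 12. This value was not given by the authors.

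Named genes are all members, up to 4 per list with the largest absolute log2 fold change among those with an adjusted p under 0.05 and a mean of at least 1 CPM, the 3 genes most like each of 2 members, S100a16, and genes marked as chosen later. Members, lists and markers were chosen with earlier results of these data known. Genes named in a list beside those of the rule, such as Apaf1, Trp53 and Foxo3, were picked for their known roles after their values were seen. Aifm1, Stat3, Perp and Gsk3b were added because they were called, and their values with a library left out are not given here. Overlaps between genes were read from GENCODE M21.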

Additional observations from a re-analysis of the deposited data

How the results depend on the processing

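Of the 10 members, 4 were called by edgeR, and the number was 4 with DESeq2, limma voom, median-ratio size factors, a minimum mean of 1 CPM and counts divided by 4. It was 2 with the replicate block (Bcl2l11 and Bax) and 1 to 3 with a library left out. Deviations of same-numbered libraries had correlations of -0.05, -0.02 and 0.05, and replicates 1 and 2 of WT did not correlate best with their own numbers. These values showed no pairing by number, but they cannot exclude that same-numbered libraries were prepared together. With limma on FPKM values it was 1 at log2(FPKM + 1) with a minimum mean FPKM of 1 (Bcl2l11, of 8 tested), 0 at log2(FPKM + 0.1) and 0 at log2(FPKM + 1) without a filter, with an unadjusted p under 0.05 for 2, 2 and 3 members. These 3 settings, in that order, called 2228, 2208 and 1370 genes over all, 22, 22 and 17 of the list genes, and 36, 36 and 26 genes near S100a16. The genes past the 2-fold limit, 721 at first, were 131, 240 and 142 there and 365 with a minimum mean of 1 CPM. In these settings the values, the test and the filter changed together, and the cause was not tested. Only log2 fold changes close to 0 turned their sign. That of Bcl2 was 0.0251 with the replicate block, 0.0247 with limma voom and -0.18 to 0.34 with a library left out. That of Bak1 was 0.0040 at a minimum mean of 1 CPM and -0.29 to 0.15 with a library left out, and that of Bbc3 -0.20 to 0.11. Over 38 genes and 639 values from these alternatives, 544 kept direction and call, 82 kept the direction and lost the call, 1 gained it and 12 turned. Depth limits Bcl2, at 40 to 77 counts.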
